A study of Mus musculus with 135 samples.

Results

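Haematopoietic stem cells (HSCs) of a young mouse were divided by a single transcript, *Junb*, and all other genes were compared between the cells that held it and the cells that did not. Of the 61 young HSCs in the table, 9 were left out at the limits on mapped reads, mitochondrial share and detected genes that the study set, and 52 were compared. The 52 cells were selected on measured values: 28 had a *Junb* level above 2, where a level is log2(CPM + 1) and CPM is the reads of the gene scaled to 1000000 counted in that cell, and 24 had a level of 2 or less. They are part of 135 single HSCs, the other 74 of which came from an old mouse. The *Junb* values that made the groups are given as a description only, and no difference in any other gene was tested, because the cells of 1 mouse are not replicates.

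Each cell was sorted from bone marrow as 7AAD-Lin-Sca-1+c-Kit+CD150+CD48-, captured on a Fluidigm C1 chip and sequenced after amplification of its polyadenylated RNA. Both mice were C57BL/6 and carried the *Vwf*-eGFP reporter, in which eGFP marks cells that use the *Vwf* gene, so that the transgene was common to all groups. The young mouse was 2 to 3 months old and the old mouse 20 to 25 months old, and the labels give no treatment. The chip's capture sites were imaged to see that each held a single cell, and no doublet caller was run.

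*Junb* encodes a subunit of AP-1, a transcription factor made of paired Jun and Fos proteins, and belongs to the immediate-early genes. These are genes that a cell switches on within minutes of growth factor, cytokine or stress signals, through kinases and transcription factors already present, and whose RNA is short-lived. In HSCs JunB is known as a brake on proliferation and myeloid output, and EGR1, a zinc finger factor of the same early response, is known for keeping HSCs quiescent and in the marrow.

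*Junb* is an intronless gene on chromosome 8, at 84976909 to 84978748 of GRCm38. The 250 bases before its start are shown with those of *Jun* and *Fos*, its Jun and Fos family partners that are named in the results, because AP-1 is known to act on some of its own genes. The sequences are from RefSeq on GRCm38.p6, at chr8:84978749-84978998 (minus strand), chr4:95052223-95052472 (minus strand) and chr12:85473640-85473889 (plus strand). They are written 5′ to 3′ and capitals mark a match to one of the motifs searched.
Junb: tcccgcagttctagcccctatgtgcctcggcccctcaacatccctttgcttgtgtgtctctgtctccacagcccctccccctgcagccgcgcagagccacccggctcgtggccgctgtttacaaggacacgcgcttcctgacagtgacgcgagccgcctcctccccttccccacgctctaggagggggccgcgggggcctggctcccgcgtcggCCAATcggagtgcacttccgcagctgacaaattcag
Jun: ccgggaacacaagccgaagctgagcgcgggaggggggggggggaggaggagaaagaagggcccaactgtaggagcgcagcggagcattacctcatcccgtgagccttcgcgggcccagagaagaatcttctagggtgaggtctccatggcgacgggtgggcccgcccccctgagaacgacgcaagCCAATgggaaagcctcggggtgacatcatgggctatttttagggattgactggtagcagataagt
Fos: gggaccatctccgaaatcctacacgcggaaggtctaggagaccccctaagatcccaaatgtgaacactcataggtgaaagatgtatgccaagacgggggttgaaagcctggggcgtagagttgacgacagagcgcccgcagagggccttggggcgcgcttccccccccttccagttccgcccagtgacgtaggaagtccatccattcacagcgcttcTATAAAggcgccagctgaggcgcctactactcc
Of the motifs searched on both strands, the *Junb* and *Jun* windows each held 1 CCAAT box (CCAAT) and the *Fos* window held 1 TATA box (TATAAA). None of the 3 windows held the letters of the AP-1 site (TGANTCA), the cAMP response element (TGACGTCA), an Egr site (GCGNGGGCG) or a CArG box, which says only that these letters are not in these 250 bases. Over all 32851 RefSeq promoters, 33.8% held the CCAAT box, 12.4% the TATA box, 6.75% the AP-1 site, 4.7% the Egr site, 1.55% the cAMP response element and 1.47% the CArG box. The GC content of the windows was 66.4% for *Junb*, 61.2% for *Jun* and 58.4% for *Fos*.

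In the 28 cells with *Junb*, its level ran from 2.44 over a median of 5.75 to 8.99, on 4 to 1728 reads per cell with a median of 123. In the 24 cells without, it ran from 0 to 1.76 with a median of 0. Of these 24 cells, 13 had no read of *Junb* and 11 had between 1 and 10, so that the lower group is low in *Junb* and not free of it. Just under the limit lay cells F9 (1.48), B5 (1.58), F2 (1.61) and B2 (1.76), with 7, 10, 4 and 7 reads. Just above it lay C11 (2.44), B8 (2.73), A3 (3.04) and E2 (3.04), with 13, 4, 16 and 16 reads, and 6 cells in all fell between 2 and 4. When each cell was reduced to 250000 reads, 27 of the 28 and 3 of the 24 cells stood above the limit. At that depth 1 read is enough to pass the limit. Of the 9 young cells left out, 2 were above it.

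The 2 groups were alike in depth. Counted reads per cell ran from 281907 to 5688706 with *Junb* (median 2721153) and from 273236 to 5018332 without (median 2925829), and the median number of genes expressed, that is with a level above 2, was 4116 and 4094. Over the 52 cells, Spearman's rho of the *Junb* level was -0.03 with counted reads and 0.01 with the number of genes expressed. At least 1 of the cell cycle genes *Ccna2*, *Ccnb1*, *Cdk1* and *Cdc25c* was expressed in 14 of 28 cells with *Junb* (50%, exact 95% interval 30.6 to 69.4) and in 13 of 24 without (54.2%, 32.8 to 74.4). These and all later intervals are exact and cover counting error only. The reads carry no molecular identifiers.

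Transcripts of the markers behind the sort and of other HSC genes were found unevenly. *Kit*, the stem cell factor receptor, was expressed in 28 of 28 cells with *Junb* and 21 of 24 without, *Hlf* in 26 and 23, and *Mecom* in 24 and 19. *Slamf1*, which encodes CD150, was detected in only 7 and 2 cells, *Procr* in 6 and 5, *Ly6a* (Sca-1) in 15 and 13, and *Cd48*, against which the sort selects, in 1 and 0. Among genes of the lineages that the sort removes, *Itgam* was expressed in 5 and 3 cells, *Cd4* in 3 and 2, and *Cd8a* in 0 and 3. *Cd3e*, *Ms4a1* and *Ly6g* were not analysed here.

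Across the 9230 genes that at least 10% of the 52 cells expressed, *Junb* left out, 929 had a mean level at least 1 higher in the cells with *Junb* (10.1%) and 585 at least 1 lower (6.34%). These shares are the background against which every count below is to be read. The 10% was taken over both groups together, in the lists as in the background, so a gene rare in 1 group could enter through the other. The differences, always the mean level with minus the mean level without, had a median of 0.13 and an SD over genes of 0.72, and 90% of them lay between -1.08 and 1.30. Only 79 genes differed by 2 or more upwards and 28 downwards. The excess of higher genes depended on the scaling: with TMMwsp factors in place of total reads the median was -0.01, and 731 genes were higher and 778 lower, so that the higher genes went from 61.4% to 48.4% of those past 1.

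**Figure D1:**
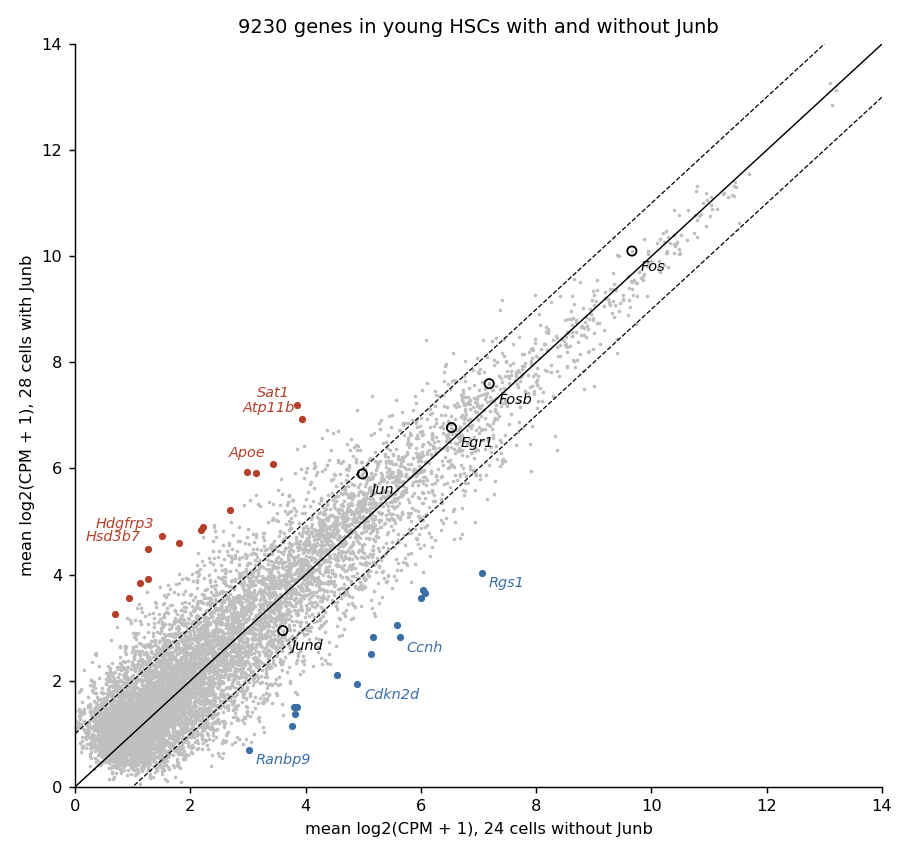
Mean level in the 24 young cells without *Junb* (x axis) against the 28 with it (y axis), both as log2(CPM + 1), for 9230 genes as grey points. The solid line is equality, the dashed lines are differences of 1, red and blue points are the 15 genes furthest above and below, and open circles are *Egr1* and AP-1 subunits, all of which lie between the dashed lines.

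The question for the immediate-early programme was whether cells with *Junb* also held more of its partner genes. *Egr1*, on chromosome 18, is its best known fellow. In the cells with *Junb* its level ran from 0.48 over a median of 8.63 to 11.96, and in the cells without from 0 over a median of 6.14 to 12.5. The ranges covered each other almost fully. *Egr1* was expressed in 21 of 28 cells with *Junb* (75%, 55.1 to 89.3) and in 21 of 24 without (87.5%, 67.6 to 97.3), so that the share pointed one way and the mean level, 6.77 ± 4.16 (SD, n = 28) against 6.53 ± 3.86 (n = 24), the other. The difference of 0.24 was near the median of all genes and ran from -0.04 to 0.50 when each cell was left out in turn. In summed reads *Egr1* had 54856 (95% Poisson interval 54398 to 55317) with *Junb* and 73144 (72615 to 73676) without. These intervals treat reads as independent and leave out amplification and the spread between cells, so they are too narrow to compare the groups. A single cell without *Junb*, B5, held 39.7% of its group's *Egr1* reads at a level of 12.5. Spearman's rho of *Egr1* with *Junb* over the 52 cells was 0.06.

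The direction for *Egr1* did not hold across the ways of making the groups. It was -1.86 among the 14 and 11 cells that expressed none of the 4 cell cycle genes, and -0.06 with TMMwsp factors. With cells divided at 1 *Junb* read (39 cells with, 13 without) it was 1.28.

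With *Junb* itself, 12 AP-1 subunits were listed and 11 were in the table, and 5 others than *Junb* were expressed widely enough to compare. None differed by 1 or more in either direction, against 10.1% and 6.34% of all genes, and their median was 0.41. *Fos*, the usual partner of Jun proteins, was high in both groups: its level ran from 1.35 over a median of 10.39 to 13.11 with *Junb* and from 0.40 over 10.42 to 12.02 without, in 27 of 28 and 23 of 24 cells. *Fosb* was expressed in 28 of 28 and 24 of 24 cells, at mean levels of 7.60 and 7.18. Fos-type RNA was thus as frequent in cells without *Junb* as in cells with it.

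The Jun family itself was less even. *Jun* was expressed in 26 of 28 cells with *Junb* and 19 of 24 without, at mean levels of 5.90 ± 2.10 and 4.99 ± 3.26 (SD, n = 28 and 24), a difference of 0.91 that ran from 0.69 to 1.13 when single cells were left out and was -0.43 as a log2 ratio of mean CPM. Among the cells that expressed it, the mean level was the same in practice, 6.31 and 6.26. *Jund*, the Jun family member that many resting cells hold, pointed the other way, in 15 and 19 cells with a difference of -0.66 that became 0.82 in non-cycling cells. *Batf*, a small AP-1 factor of lymphoid and myeloid cells, differed by 0.03. Of the subunits too rare to compare, *Fosl2* was expressed in 2 and 3 cells, *Batf2* in 0 and 2, *Atf3* and *Fosl1* in 1 and 0 each, and *Jdp2* in none. *Batf3* was not analysed here.

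**Figure D2:**
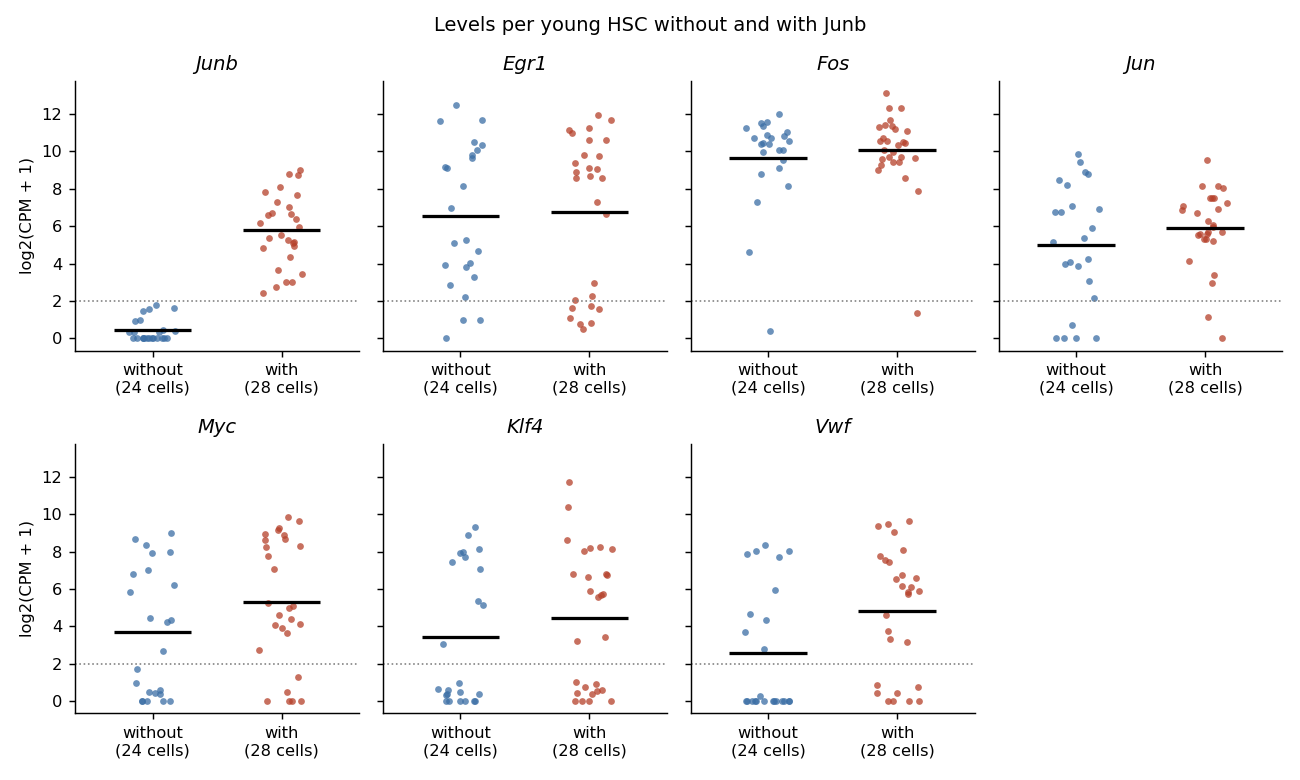
Level of 7 genes in every young cell, without (blue, 24 cells) and with *Junb* (red, 28 cells), as log2(CPM + 1), with the group mean as a black bar and the limit of 2 for an expressing cell as a dotted line. *Junb* is separated because it made the groups, while *Egr1* and *Fos* cover the same range on both sides and *Vwf* is at 0 reads in 13 of 24 cells without *Junb* and in 4 of 28 with it.

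Of 26 other immediate-early transcription factors, 17 were compared, 3 were higher by at least 1 and none lower, with a median of 0.27. *Myc*, a driver of growth and cell division, had the largest difference, 1.65: it was expressed in 22 of 28 cells with *Junb* (78.6%, 59 to 91.7) and in 13 of 24 without (54.2%, 32.8 to 74.4), with its level running from 0 over a median of 5.03 to 9.85 and from 0 over 3.46 to 8.97. The groups overlapped over the whole range. In cells that expressed *Myc* the mean was 6.69 and 6.43, so the groups differed in how many cells held it more than in how much a cell held. *Klf10*, induced by TGF-beta, was expressed in 17 and 13 cells with a difference of 1.29. With the *Junb* limit at 4, *Myc* differed by 0.44 and *Klf10* by 0.08, and neither was past 1. *Klf4*, a Krüppel-like factor linked to cell cycle exit, was expressed in 17 and 11 cells with a difference of 1.04, which came under 1 when any one of 28 of the 52 cells was left out. *Ier3* (0.70), *Id1* (0.65) and *Csrnp1* (-0.64) were the next largest and stayed within 1.

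Counted per cell, a median of 12 of the listed AP-1 and immediate-early genes was expressed in cells with *Junb* (lowest 6, highest 16, *Junb* left out) and of 11.5 in cells without (5 to 17). The programme was therefore present in cells on both sides of the *Junb* limit, in about equal breadth.

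Among 26 genes of the serum response and MAP kinase pathway that feed these genes, 2 were higher and 2 lower, with a median of 0.23. *Braf*, a RAF kinase, was higher by 1.23 (20 and 14 cells) and *Mapk8*, which encodes the kinase JNK1 that phosphorylates Jun, by 1.06 (6 and 2 cells), while *Mapk3*, which encodes ERK1, differed by -1.12 (3 and 8 cells) and *Rps6ka3*, a kinase downstream of ERK, by -1.29 (10 and 10 cells). *Map3k1* (0.73) and *Mapk9* (0.71) stayed within 1.

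The feedback regulators, which early response signalling induces and which then dampen it, held the most extreme gene in the lower direction. Of 22 compared, 3 were higher and 3 lower by at least 1, with a median of 0.36. *Rgs1*, which shuts off G protein signalling from chemokine receptors, had a level from 0 over a median of 4.01 to 10.26 in cells with *Junb* and from 0 over 8.73 to 12.15 in cells without, the lowest difference of all genes at -3.02. It was expressed in 19 of 28 cells (67.9%, 47.6 to 84.1) and in 19 of 24 (79.2%, 57.8 to 92.9). Unlike *Myc*, it differed mainly in level among expressing cells, with means of 5.50 and 8.84. In summed reads *Rgs1* had 7548 with *Junb*, 39.5% of them in 1 cell, and 46658 without, where the top cell held 26.3%.

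*Rgs2*, of the same family, was expressed in 17 and 17 cells and differed by -1.43, and *Dusp2*, a phosphatase that inactivates MAP kinases, in 4 and 12 cells by -1.61. The genes on the higher side were *Plk2*, a stress-induced kinase (1.5, 12 and 5 cells), *Spry1*, an inhibitor of receptor tyrosine kinase signalling (1.37, 12 and 5 cells), and *Btg2*, an antiproliferative gene (1.25, 10 and 3 cells). *Btg2* came under 1 without cell E11 or G11, and *Spry1* was -1.34 as a log2 ratio of mean CPM.

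Of 12 NF-kB response genes, 2 were higher and 1 lower, with a median of 0.18: the inhibitors *Nfkbid* (1.97, 14 and 6 cells) and *Nfkbia* (1.53, 15 and 11 cells) were higher, and *Rela*, a subunit of NF-kB itself, differed by -1.29 (7 and 11 cells). *Tnfaip3* (-0.99), *Nfkbib* (-0.90) and *Nfkbiz* (0.86) were short of 1. Among 13 heat shock and unfolded protein genes only *Dnajb1* passed 1, at 1.01, and the median was -0.02. *Dnajb1* came under 1 when any one of 26 cells was left out. *Hspa8* and *Hsp90ab1* were expressed in every one of the 52 cells and differed by -0.26 and 0.55. Of 12 p53 target and growth arrest genes, *Plk2*, *Btg2* and *Aen*, a nuclease (1.08), were higher and none lower, with a median of 0.36.

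**Figure D3:**
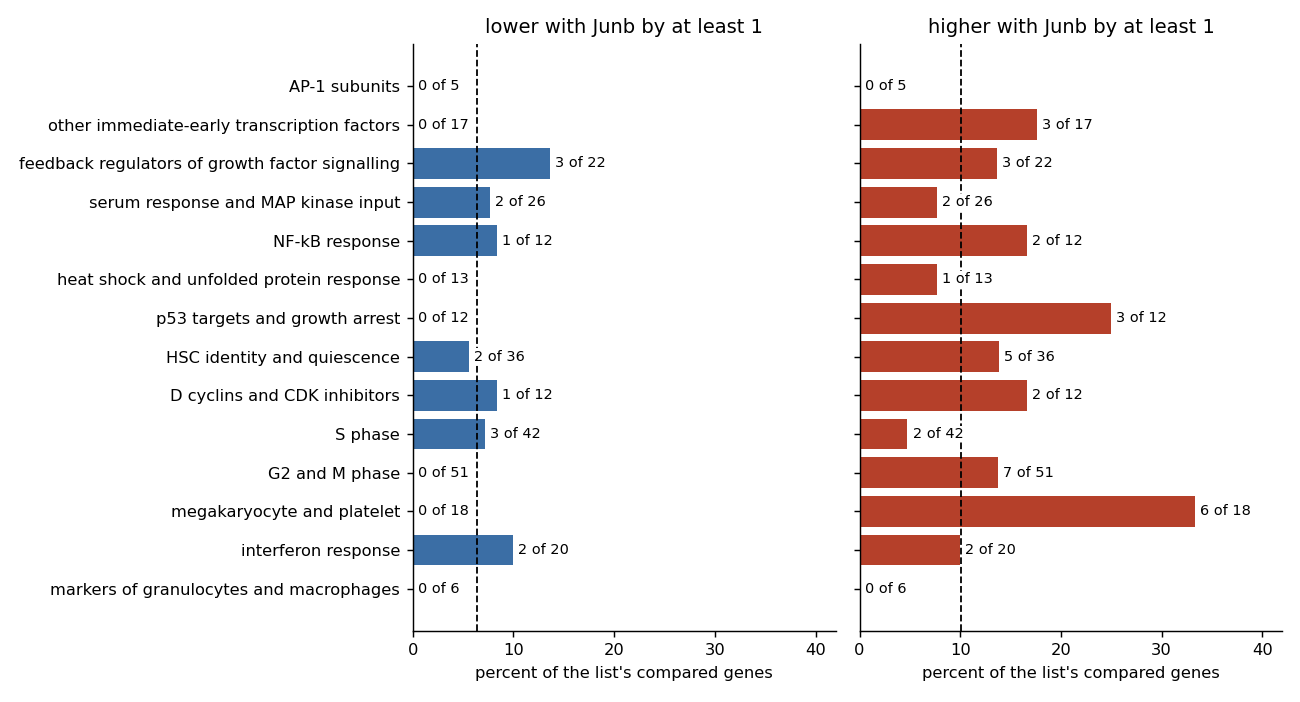
Share of each gene list's compared genes that were lower (left, blue) or higher (right, red) by at least 1 in young cells with *Junb*, in percent, with the counts printed at the bars and the share over all 9230 genes as dashed lines (6.34% and 10.1%). Lists with fewer than 5 compared genes are left out, and the longest bar is the megakaryocyte and platelet list on the higher side, at 6 of 18.

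The list with the largest share past 1 was that of megakaryocyte and platelet genes, which are of interest because some HSCs are primed towards platelets and carry *Vwf*. Of 31 listed, 28 were in the table, 18 were compared, 6 were higher by at least 1 and none lower, with a median of 0.50. *Vwf*, von Willebrand factor, was expressed in 20 of 28 cells with *Junb* (71.4%, 51.3 to 86.8) and in 10 of 24 without (41.7%, 22.1 to 63.4). Its level ran from 0 over a median of 5.86 to 9.65 with *Junb* and from 0 over a median of 0 to 8.35 without, a difference of 2.25 that stayed between 2.08 and 2.51 when single cells were left out. With the *Junb* limit at 4 the difference of *Vwf* was 0.60, and a smaller pseudocount, 0.1 CPM, gave 3.47. Cells of either group reached high levels of *Vwf*, and among expressing cells the means were 6.63 and 6.14.

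Among the other 5 were *Sdpr*, which shapes caveolae (1.47, 7 and 1 cells), *Cd9*, a platelet tetraspanin (1.27, 20 and 15 cells), *Mef2c*, a transcription factor of megakaryocyte and lymphoid cells (1.15, 20 and 18 cells), and *Fhl1*, a LIM protein (1.03, 8 and 2 cells). *Sdpr* and *Fhl1* were expressed in under 10% of the cells without *Junb*. They were compared only through the cells with it, so their place among the 6 is partly set by the filter. The most specific late platelet genes were nearly absent: *Pf4* was expressed in 2 and 3 cells, *Ppbp* in 2 and 0, *Gp1ba* in 1 and 1 and *Gp5* in 0 and 1 (these 4 were named after their values were seen). Per cell, a median of 9.5 of the listed genes was expressed with *Junb* (5 to 14) and of 7 without (3 to 20). The count of 6 moved with the limit set on *Junb*. It was 2 with cells divided at 1 read, 1 with a limit of 4, and 3 with cells above 4 set against cells at or under 2, and it was between 5 and 7 with each cell left out in turn.

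In HSC identity and quiescence genes, 5 of 36 were higher and 2 lower, with a median of 0.16. The higher ones included *Erg* (1.56, 12 and 7 cells), *Mecom* (1.30) and *Bmi1* (1.12), all of which HSCs need to renew themselves, beside *Ptprc* (named after its value was seen). *Tal1*, a blood master regulator, differed by -1.44 (19 and 17 cells) and *Cd27* by -1.42 (22 and 21 cells). *Hlf* differed by 0.32 and *Kit* by 0.75.

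The cell cycle lists are given because JunB is known as a brake on proliferation, a role that was not tested here. Of 12 D cyclin and CDK inhibitor genes, 2 were higher, 1 lower and the median was -0.11. *Ccnd2*, which drives entry into the cycle, was higher by 1.5 (25 and 18 cells), as was *Rbl2*, a pocket protein of resting cells, by 1.39. *Cdkn2d*, an inhibitor of CDK4 and CDK6, had a level from 0 over a median of 0.51 to 7.77 in cells with *Junb* and from 0 over 5.81 to 10.1 in cells without. It was expressed in 8 of 28 cells (28.6%, 13.2 to 48.7) and in 15 of 24 (62.5%, 40.6 to 81.2), a difference of -2.97.

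Of 42 S phase genes, 2 were higher (*Cdca7* 1.61 and *Pold3* 1.15) and 3 lower (*Gmnn* -1.65, *Tipin* -1.28 and *Dtl* -1.18), with a median of -0.08. Of 51 G2 and M phase genes, 7 were higher and none lower, with a median of 0.39, and 38 of the 51 differences were above 0, as were 57.4% of those of all 9230 genes. The largest were in *Ctcf* (1.92, 21 and 13 cells), the architectural factor, *Smc4*, a condensin subunit (1.89, 23 and 15 cells), *Hmmr* (1.37), *Lbr* (1.29), *Anp32e* (1.28) and *Ckap5* (1.22). Several of these, *Ctcf* and *Lbr* among them, are also expressed outside mitosis. Among interferon response genes, 2 of 20 were higher (*Gbp2* 1.87, *Oasl2* 1.49) and 2 lower (*Irf9* -1.14, *Usp18* -1.02), with a median of 0.19.

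Of the 47 named genes past 1 that are not among the 30 leading genes described below, 16 came back under 1 when some single cell was left out. For *Rps6ka3* this was 1 cell (D8), for *Lbr* B5 or H4, and for *Ckap5* G11 or G5. For *Irf9*, *Usp18*, *Mapk3*, *Mapk8*, *Aen*, *Bmi1*, *Mef2c*, *Dtl*, *Pold3* and *Fhl1* it was 4 to 8 cells each. None of the 30 leading genes did so. Over the 14 alternative settings of cells, scale and *Junb* limit, 43 of the 47 and 8 of the 30 leading genes were under 1 in at least 1 setting. Of 77 named genes short of 1, 54 had both signs over these settings.

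Markers of other cells that a sort could let through were listed too. In the lists of B, T and NK, erythroid, granulocyte and macrophage, dendritic and endothelial or stromal markers, 1, 3, 2, 6, 4 and 3 genes were compared and none passed 1 in either direction. No mast cell or basophil marker was expressed widely enough to compare. The nearest were *Nkg7* (-0.97, 4 and 6 cells), *Cd79b* (-0.95, 5 and 7 cells), *Lck* (0.83, 8 and 3 cells), *H2-Aa* (-0.74, 3 and 5 cells) and *Lyz2* (0.69, 24 and 19 cells). Summed over its markers, the B cell list reached 572 CPM at most with *Junb* and 1108 without, at medians of 0.34 and 0.38, upper quartiles of 1.24 and 71.8 and means of 32.3 and 169, and its defining genes *Vpreb1* and *Vpreb3* had no read in any young cell. The dendritic list reached 1534 and 1290 at medians of 44.7 and 42, and the granulocyte and macrophage list 1401 and 2332 at medians of 480 and 175, without a read of *Elane*. All 6 of its compared genes were above 0, by 0.31 to 0.69. For T and NK markers the summed CPM ran from 0 to 481 and from 0 to 356, for erythroid markers, carried by *Car2*, from 296 to 8636 and from 17.4 to 9399 without a read of *Hba-a1*, for endothelial and stromal markers from 16.7 to 1046 and from 24.9 to 1325, and for mast cell and basophil markers from 0 to 0.45 and at 0. Their part in the differences above was not tested.

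The 15 genes furthest on the higher side differed by 2.53 to 3.36 and came from many pathways. *Sat1*, on the X chromosome, encodes the enzyme that acetylates spermidine and spermine for export. It was expressed in 22 of 28 cells with *Junb* and 12 of 24 without, with a level from 0 over a median of 8.73 to 12.24 and from 0 over 2.55 to 9.98. Its difference of 3.36, the highest of all, was smaller than the SD between cells, 3.95 with and 3.76 without *Junb*. *Hdgfrp3*, related to a heparin-binding growth factor, was expressed in 19 and 6 cells and differed by 3.23. *Hsd3b7*, an enzyme of bile acid synthesis, was expressed in 15 and 5 cells and differed by 3.22, with 83.1% of the reads of the cells without *Junb* in 1 cell. *Apoe*, the apolipoprotein, was expressed in 22 and 12 cells and differed by 2.66.

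The others on that side were *Atp11b*, a lipid flippase (2.99, 24 and 16 cells), *Rtcb*, a tRNA ligase (2.95), *Atp6v1e1*, a subunit of the vacuolar proton pump (2.79), the zinc finger factors *Zfp148* (2.76) and *Rreb1* (2.68), *Tm2d2* (2.71), the transcription factor *Ubp1* (2.67), the secretory cargo receptor *Mcfd2* (2.65), the poly(A) polymerase *Papolg* (2.62), *Sucla2*, of the citric acid cycle (2.57), and *Mkln1* (2.53). They were expressed in 12 to 24 of the 28 cells with *Junb* and in 3 to 16 of the 24 without.

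On the lower side, after *Rgs1* and *Cdkn2d*, stood *Ccnh*, the cyclin of the CDK-activating kinase (-2.81, 11 and 17 cells), and *BC031181* (-2.64, 11 and 17 cells). The autophagy gene *Gabarapl2* (-2.52), the sorting nexin *Snx5* (-2.45) and *Nfatc1*, the calcineurin-dependent factor (-2.45), followed, with *2700060E02Rik* (-2.43), *Zzz3* (-2.43), the splicing gene *Smu1* (-2.35), the mitochondrial ribosomal gene *Mrpl36* (-2.33), *Gm13157* (-2.32), *Ranbp9* (-2.32) and *Ppp1r9b* (-2.29). *Gm13157* belongs to a family of near-identical zinc finger genes, so its reads are uncertain.

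For all 30 of these genes the levels of the groups overlapped, and the difference was smaller than the larger of the group SDs, which were 2.88 to 4.32. They were picked as the extremes of this very comparison, so their size is no support for a link with *Junb*. Reducing each cell to 250000 reads moved the number of expressing cells by at most 4 in any group. After this reduction 1 read makes a cell expressing, so the limit is not the same as before it.

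**Figure D4:**
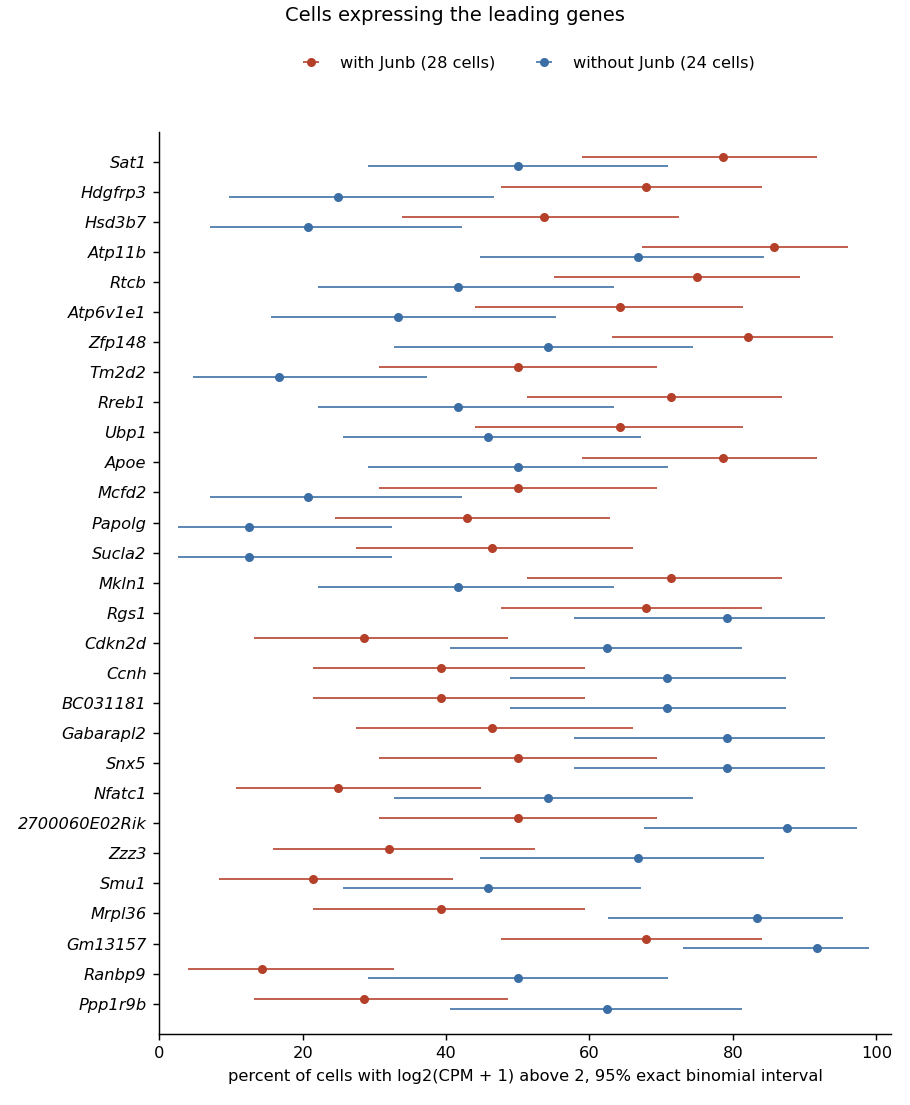
Percent of cells that expressed the leading genes named in the text, with (red, 28 cells) and without *Junb* (blue, 24 cells), with exact 95% binomial intervals as bars. The genes are ordered by difference, the higher ones from *Sat1* at the top and the lower ones from *Rgs1*, and in most the intervals overlap.

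The genes whose level ran most like that of *Junb* over the 52 cells, by Spearman's rho, were *Gm14461* (0.56), *Gm14436* (0.51), *Hykk* (0.48), *Ccdc167* (0.47) and *Pcbd1* (0.47). In the old mouse the same measure over 62 cells gave -0.05, 0.31, -0.09, 0.12 and -0.10. *Pcbd1*, a cofactor-recycling enzyme, was expressed in 11 of 28 cells with *Junb* and 1 of 24 without, and differed by 2.04. *Hykk* and *Ccdc167* were expressed in all 52 cells and differed by only 0.53 and 0.44, and their rho with the number of counted reads was -0.28 and -0.32. These 5 were picked as the highest of 9230 genes in the same cells, so the size of their rho is no support for a link with *Junb*. It is no measure for genes listed beforehand either. For the AP-1 genes *Jun*, *Fos* and *Fosb*, rho with *Junb* was 0.12, 0.09 and 0.16.

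The promoters of the genes past 1 were also read, since AP-1 sites are where a JunB protein would bind. Of 7004 compared genes with a RefSeq promoter, 5.1% held the AP-1 letters in the 250 bases before a start, against 4.56% of the 724 higher genes and 4.64% of the 453 lower ones. For the Egr site the shares were 10%, 9.67% and 8.39%, for the cAMP response element 3.13%, 3.59% and 3.53%, and for the CArG box, through which serum response factor acts, 1.33%, 2.07% and 1.1%. The CCAAT box was held by 40.9%, 39.5% and 40.8% and the TATA box by 7.75%, 8.84% and 7.51%. In these 250 bases the AP-1 share was no larger on either side of the comparison than among all genes. Sites further away were not searched, and binding of JunB was not tested.

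The old mouse was not used to choose the young cells, and the same limit divided its 62 cells into 48 with and 14 without *Junb*. There 9069 genes were compared, and 962 were higher (10.6%) and 800 lower (8.82%) by at least 1, with a median of 0.08. Of the 8351 genes compared in both mice, 880 were higher in the young mouse and 921 in the old, and 125 were higher in both. That is 14.2% of the young list and 13.6% of the old, where 11% and 10.5% of all 8351 genes passed. The opposite combination, higher in young and lower in old cells, held 99 genes, 11.2% of the young list against 8.98% of all genes. Lower in both were 72 genes, 13.2% of 546 and 9.6% of 750, where 8.98% and 6.54% of all genes passed. Lower in young and higher in old cells were 64 genes, 11.7% of the young list against 11% of all. Across the 8351 genes, which are not independent of each other, Pearson's r between the differences of the mice was -0.004.

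**Figure D5:**
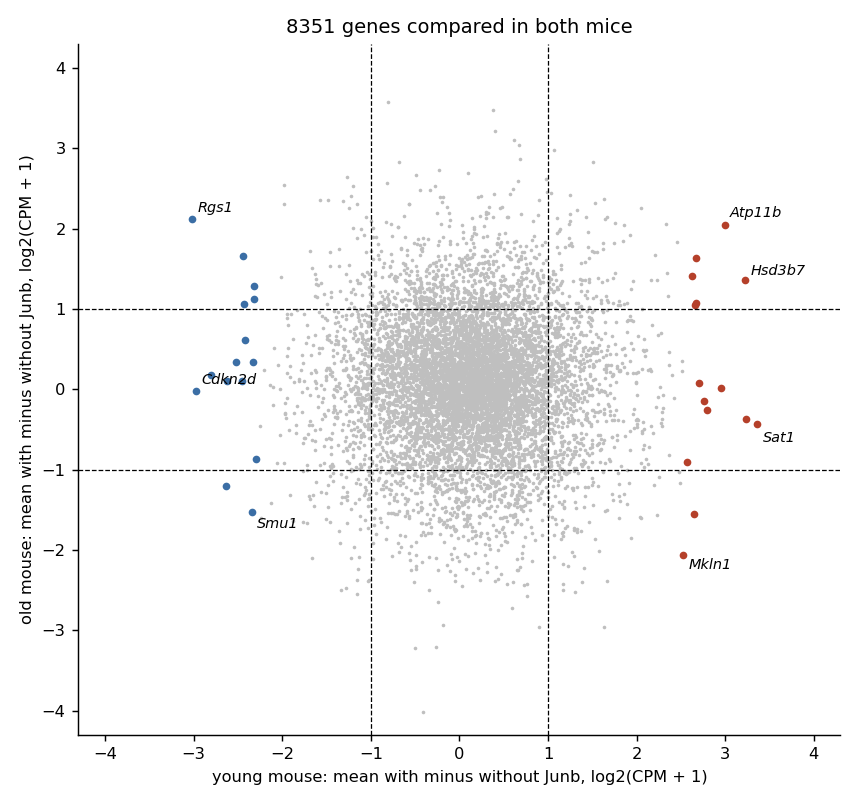
Difference in mean log2(CPM + 1) between cells with and without *Junb* in the young (x axis, 28 and 24 cells) and in the old mouse (y axis, 48 and 14 cells) for 8351 genes. Red and blue points are the young mouse's 15 highest and 15 lowest genes, dashed lines mark differences of 1, and the points of both colours lie on both sides of 0 on the old mouse's axis.

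The leading genes went both ways. Of the 15 highest young genes, 8 were above 0 in the old mouse, where 54.9% of the 8351 genes were, and 6 were past 1, where 11% of them were: *Atp11b* (2.05), *Rreb1* (1.64), *Papolg* (1.41), *Hsd3b7* (1.36), *Ubp1* (1.07) and *Apoe* (1.05). *Mkln1* (-2.06) and *Mcfd2* (-1.56) were past 1 in the opposite direction, where 8.98% of all genes were, and *Sat1*, first in the young mouse, stood at -0.43. Of the 15 lowest, 4 were below 0 in the old mouse against 45.1% of all genes. Past 1 among them were *Smu1* (-1.52) and *BC031181* (-1.20), where 8.98% of all genes were. The other direction held 5 past 1, where 11% of all genes were: *Rgs1*, *Nfatc1* (1.66), *Gm13157* (1.29), *Ranbp9* (1.12) and *2700060E02Rik* (1.07). *Rgs1*, the lowest young gene, was higher with *Junb* by 2.12 in the old mouse, where 32 of 48 and 6 of 14 cells expressed it, and *Cdkn2d* stood at -0.02.

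The immediate-early lists had near medians in the mice for the other factors, 0.27 and 0.31, with 3 higher in each and no gene higher in both. In the old mouse *Egr1* was expressed in 48 of 48 and 14 of 14 cells and differed by 1.26. Of the 14 cells without *Junb*, G9 (4.15) and B6 (4.31) had far lower *Egr1* levels than the rest, which were at 9.23 or more. The part of these cells in the difference was not tested. *Btg2* differed by 2.42, *Egr3* by 1.97 and *Nr4a2* by 1.40. Of 24 feedback regulators compared in the old mouse, 4 were higher, *Btg2*, *Dusp2* and *Rgs1* among them, and 2 were lower. *Dusp2* differed by -1.61 in young cells. *Egr3* was expressed in 2 of 28 and 0 of 24 young cells and was not compared there, and *Nr4a2* differed by -0.29 in young cells (both were named after their values were seen). *Myc* differed by 0.70 in the old mouse, *Klf4* by 0.26 and *Klf10* by -1.75. The AP-1 subunits had a median of -0.19 over 8 genes, with *Jun* at 0.46, *Fos* at -0.35 and *Fosb* at 0. None of the 8 was higher by at least 1, and 1 was lower, *Batf* (-1.12). Of the 22 other immediate-early factors compared, 3 were higher and 1 lower. Over all genes compared in the old mouse, 10.6% were higher and 8.82% lower.

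Among the 6 young platelet genes, *Vwf* (-1.09) and *Cd9* (-2.03) were past 1 in the opposite direction in the old mouse, *Sdpr* (1.03) was past 1 in the same direction, and *Fhl1* (0.78) and *Mef2c* (-0.14) were not past it. The old list had 3 of 21 genes higher and 2 lower, with a median of 0.25, where 10.6% and 8.82% of all genes compared in the old mouse passed. In S phase genes the old cells with *Junb* had none of 29 higher and 9 lower, against the same 10.6% and 8.82%. The median was -0.78, where the young list stood at -0.08. Few old cells expressed any of the 4 cell cycle genes, 10 of 48 with *Junb* and 3 of 14 without, so these values rest on few cells. For G2 and M phase genes the medians were -0.24 in the old and 0.39 in the young mouse. Differences between the mice were not tested, and with 1 mouse of each age, age and animal cannot be told apart. The cell names hold 46 positions that occur in both ages, but the labels do not say whether these are sites of a chip. The labels do not name the chip of any cell, so an effect of the chip cannot be told apart from age either.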

How the data were processed

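Single-cell RNA sequencing covered 61 young and 74 old HSCs, from 1 mouse per age. Reads of 51 bp were aligned by the authors to the mm10 build (TopHat2 2.0.10, 1 alignment per read) and assigned to RefSeq genes by rpkmforgenes, and the raw counts of 15181 entries, 21 of them joint entries, were deposited. No use of strand is stated for the counting, and overlapping and near-identical genes were not separated. Cells were left out as in the study.

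Counts were scaled to CPM by the cell total, with a pseudocount of 1, in pandas 2.3.3 and scipy 1.17.1 (matplotlib 3.10.9 for plots). Cells with log2(CPM + 1) above 2 were called expressing. Genes expressed in at least 10% of a mouse's cells were compared, and those differing by at least 1 were counted. No test was made: the labels give 1 mouse per age and cells are not replicates. Shares have exact Clopper-Pearson and summed reads exact Poisson intervals. The calculation was tested on simulated data. Alternative factors came from edgeR 4.0.16 (TMMwsp) and DESeq2 1.42.0 (poscounts) in R 4.3.3.

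Symbols were matched to RefSeq for 14287 entries, and no position was matched for *Hdgfrp3*, *2700060E02Rik*, *Gm13157*, *Gm14436* and *Sdpr*. Named were *Junb*, *Egr1*, the 15 highest and 15 lowest differences, at most 6 members of each of 20 lists, the cell type markers and the 5 genes most like *Junb*. Others are marked in the text or belong to the AP-1 list, given whole. A few of these genes are not reported here. The members and lists were chosen with earlier results of these data known.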

Additional observations from a re-analysis of the deposited data

How the results depend on the processing

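The differences were recomputed under 14 alternatives of cells, scale and *Junb* limit, and the gene counts also with other gene filters and at a difference of 2. The count of 929 higher genes became 1479 in the cells of the middle range by number of genes expressed (14 with and 12 without *Junb*), 1640 in non-cycling cells, 1792 with a pseudocount of 0.1 CPM, 2031 by the ratio of mean CPM and 79 at a difference of at least 2. The 585 lower genes became, in the same order, 1242, 1217, 1029, 1608 and 28, and 334 with all 61 cells, 368 under looser cell limits and 1157 with *Junb* divided at 1 read. The share of higher genes among those past 1 was 73%, 72.4% and 41.9% in these last settings. The 125 genes higher in both mice became 364, 242, 365, 588 and 3 in the first order, 207 at 1 read, 82 with TMMwsp and 83 with poscounts factors. The median of the AP-1 subunits was -0.26 in the middle range and -0.43 by the ratio of mean CPM, that of the other immediate-early factors -0.44 in the middle range, and *Egr1* was -1.86 in non-cycling cells and 1.28 at 1 read. Leaving out each cell in turn, added after seeing the data, gave 893 to 1013 higher and 541 to 648 lower genes, 0.19 to 0.51 and 0.06 to 0.46 for the medians and -0.04 to 0.50 for *Egr1*. Of the named genes past 1, the sign turned for *Btg2* (-0.42 in the middle range, -0.36 in non-cycling cells), *Irf9* (0.08, middle range), *Tal1* (0.09, non-cycling), *Spry1* (-1.34, ratio), *Rela* (0.22), *Dtl* (0.67) and *Ckap5* (-0.50) at 1 read, and *Rbl2* (-0.32, limit of 4). The 30 leading genes, picked as extremes of the same cells, kept their sign in all 14 settings, and 8 of them were under 1 in at least 1. Where cells were fewer the counts come from smaller groups, and otherwise the cause was not tested. Platelet genes and single genes were run through the same settings after seeing the data.

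No paired analysis was possible because each age is 1 mouse and no test was made. Depth bears on the limit in the shallowest cell, of 273236 reads, where 1 read gives a level of 2.22.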
